A study of Arabidopsis thaliana with 8 samples.

Results

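WRKY genes encode plant transcription factors that share a DNA-binding domain named after its conserved amino acids. Their binding by URI was described here in roots of Arabidopsis thaliana. Members were all protein-coding genes whose symbol or synonym is WRKY followed by a number, which gave 72 genes, 67 by symbol and 5 by a synonym (WRKY1, WRKY16, WRKY44, WRKY52 and WRKY63). They were taken from 27444 protein-coding genes on the 5 chromosomes, and a URI peak was assigned to a member when it overlapped that gene or the 1500 bp next to either of its ends. By this rule 34 members had a peak and 38 had none, and the bound members held 39 of the 2366 deposited peaks.

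The transcription factor URI (bHLH121) belongs to the basic helix-loop-helix class and takes part in the response to low iron (Fe). ChIP-seq, in which chromatin fragments held by URI are precipitated and sequenced, was done on roots of a uri mutant complementation line. The roots had spent 72 h under Fe deficiency or Fe sufficiency, and every library comes from that line. Fe-deficient roots gave 3 URI libraries and 1 IgG control, and Fe-sufficient roots likewise gave 3 URI libraries and 1 IgG control. The sources used here give neither the construct and promoter of the complementing URI nor the antibody or the age of the plants. For each peak, the authors' deposited table holds a single mean per Fe condition, so no value per library can be shown. Nothing says that the 3 libraries of a condition were grown separately, so p-values may measure technical spread.

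WRKY factors bind the W-box, a short DNA element in the promoters of many stress genes, and act as activators or repressors. They are best known from immunity, where mitogen-activated protein (MAP) kinases switch them on, and several also act in roots in phosphate, boron or Fe nutrition and in development. The family is divided by its domains. Group I proteins carry a pair of WRKY domains, groups IIa to IIe carry a single domain, and group III carries a single domain with another type of zinc finger. Basic helix-loop-helix factors such as URI bind E-box elements, of which the G-box is the best known form. No DNA or protein sequence was used here, so neither element was searched for.

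URI peaks lay near 34 of 72 WRKY genes (47.2%), against 11.8% of all protein-coding genes. Of the 34, 29 had 1 peak and 5 had a pair of peaks, namely WRKY6, WRKY7, WRKY11, WRKY65 and WRKY69. Genes with more than 1 peak thus made up 6.94% of the family, against 1.38% of all protein-coding genes. A peak overlapped the gene itself for 15 members (20.8%), against 5.8% of all protein-coding genes. The other 19 bound members had peaks in the flank only. By chromosome, a peak was found at 10 of 16 members on chromosome 1, 6 of 17 on chromosome 2 and 2 of 6 on chromosome 3. On chromosome 4 it was 9 of 16 members and on chromosome 5 it was 7 of 17. The share of all protein-coding genes was taken over the 5 chromosomes together (11.8%) and not for each.

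Most of these peaks lay beside the gene rather than within it. The midpoint fell inside the member for 5 of 39 peaks, those of WRKY14, the stronger WRKY69 peak, both WRKY7 peaks and the weaker WRKY11 peak. Counting any protein-coding gene, the midpoint lay inside one for 7 of the 39 peaks (17.9%), against 19.4% of all peaks. The 21 peaks that did not overlap their member lay 62 to 1479 bp away, with a median of 542 bp. WRKY53, a regulator of leaf senescence, had the nearest of these, and WRKY59 the farthest. The annotation used gives no strand, so upstream and downstream flanks could not be told apart.

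**Figure D1:**
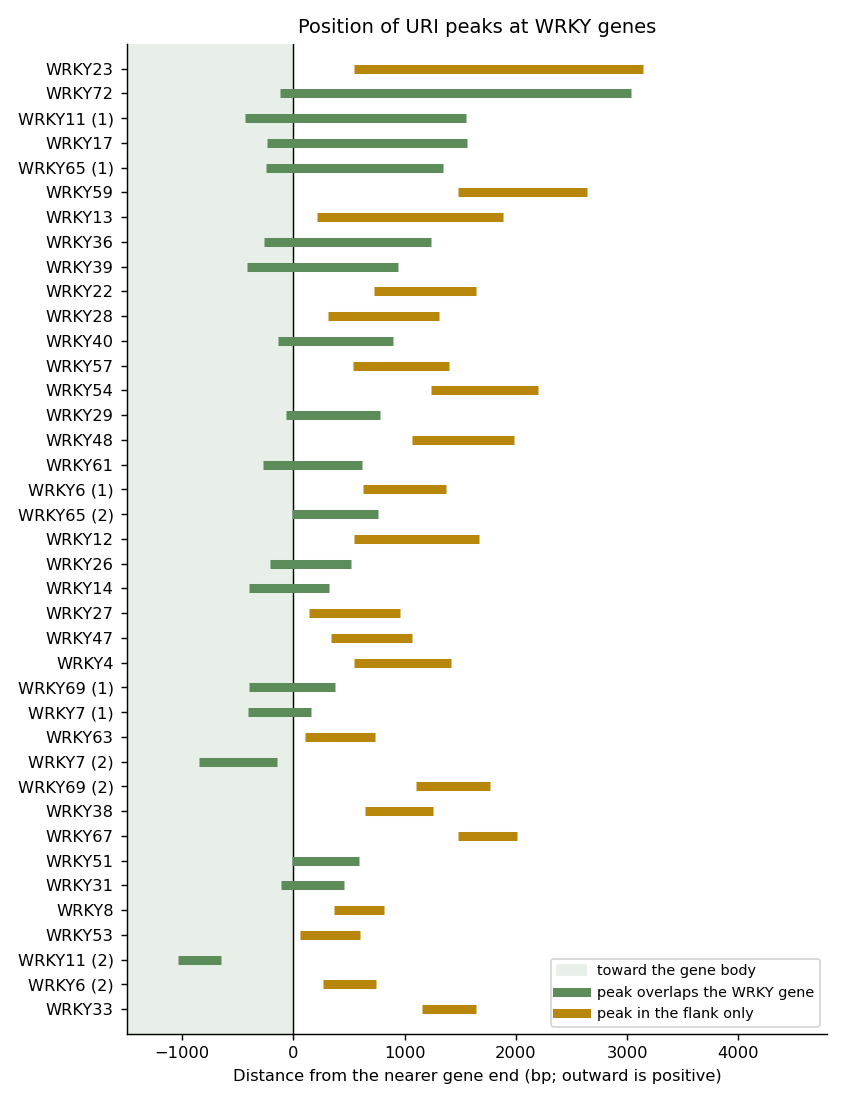
Position of each of the 39 peaks (rows, by mean concentration, strongest at the top) as the distance in bp from the nearer end of its WRKY gene, with the flank to the right of 0 and the gene side shaded to the left. Bars span each peak, and 18 of them overlap the gene while 21 lie in the flank only; (1) and (2) mark the stronger and weaker peak of a gene.

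WRKY genes have wide gaps around them, and members with a peak had wider gaps than members without. The gap to the neighbouring protein-coding genes, summed over both sides, had a median of 5778 bp for bound members and 2543 bp for unbound members, while over all protein-coding genes it was 1833 bp. All genes were divided into 3 classes of like size by this gap. In the class with the widest gaps (at least 3039 bp), 28 of 46 WRKY genes had a peak, against 14.4% of all genes in that class. In the middle class the count was 5 of 20 WRKY genes, against 14.1% of all genes. In the class with the narrowest gaps (under 1017 bp), 1 of 6 WRKY genes had a peak, against 7.0% of all genes. The part of gap size in the family's share was not tested. Gene length had a median of 2196 bp for bound members, 1878 bp for unbound members and 2078 bp for all protein-coding genes. Its part in the family's share was not tested either.

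By WRKY group, peaks were found near 6 of 8 genes of group IIb, 6 of 8 of group IIe, 4 of 7 of group IId and 9 of 18 of group IIc. The counts were 5 of 14 for group III, 1 of 3 for group IIa and 3 of 14 for group I. Of all protein-coding genes, 11.8% had a peak. Group I also had the narrowest gaps, with a median of 1396 bp, and group IIb the widest, with 7172 bp. Between them, the median was 3930 bp for IIa, 4020 bp for IIc, 4270 bp for III, 4377 bp for IId and 6254 bp for IIe. Differences between groups were not tested.

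**Figure D2:**
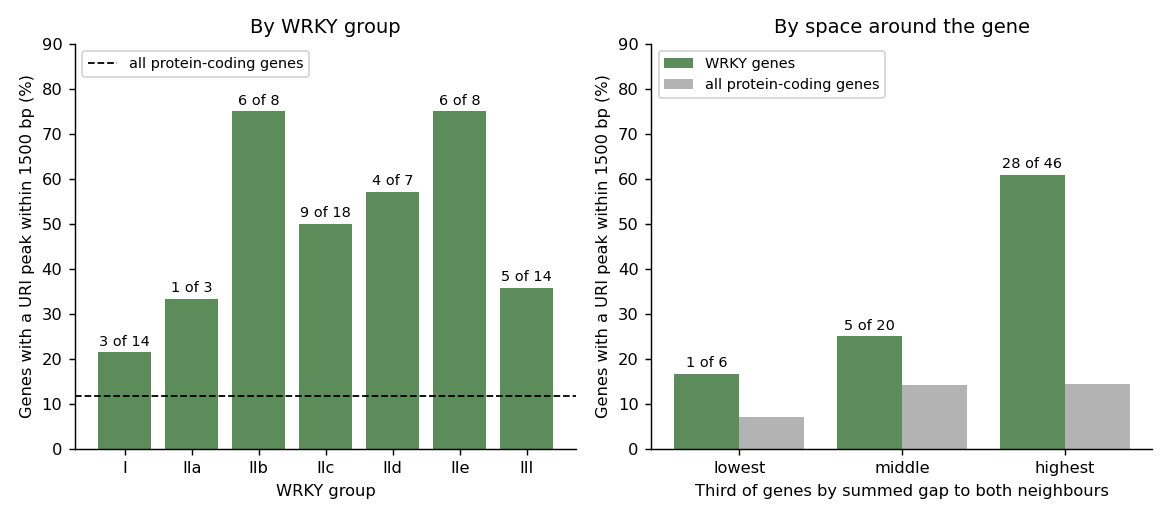
Left, share of genes with a URI peak within 1500 bp (percent) in each WRKY group, with the 11.8% of all protein-coding genes as a dashed line. Right, the same share for WRKY genes (green) and all protein-coding genes (grey) in 3 classes of all genes by the summed gap to both neighbours; in the highest class it is 28 of 46 WRKY genes.

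Levels are given as normalised reads, 2 to the power of the deposited log2 concentration, and each level is a mean over 3 libraries without its spread. Over the 39 peaks the mean concentration ranged from 2.79 to 5.48 with a median of 3.71 (13.1 reads), against a median of 3.61 (12.2 reads) over all 2366 peaks. In the strongest 10% of all peaks, at a concentration of at least 4.73, there were 7 WRKY peaks (17.9%). Wider peaks hold more reads, so levels were also compared per length. Per kb of peak the family's median was 16.5 reads, against 16.65 for all peaks, and 3 of its 39 peaks (7.69%) were in the top 10% on that scale. The strongest WRKY peak ranked 65th among all peaks by concentration.

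WRKY23, an auxin-responsive regulator of root development, had that strongest peak (chromosome 2, 19407639 to 19410237), with 42.2 reads under Fe deficiency and 46.9 reads under Fe sufficiency. The log2 change (deficiency minus sufficiency) in the authors' deposited table was -0.15 (FDR 0.689). It lies in the flank, and UPB1, a helix-loop-helix gene that controls the balance of reactive oxygen species in the root tip, is also within 1500 bp of it. WRKY72, which acts in basal immunity, had the next strongest (chromosome 5, 4901258 to 4904415), with 32.7 reads under deficiency and 53.4 under sufficiency. This was the widest peak of the family at 3157 bp, and per kb it held 13.7 reads and ranked 2009th.

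WRKY11 and WRKY17, closely related group IId genes that restrain basal resistance to bacteria, followed with nearly equal levels. The main WRKY11 peak (chromosome 4, 15291499 to 15293481) had 29.9 reads under deficiency and 48.2 under sufficiency. The WRKY17 peak (chromosome 2, 10439232 to 10441033) had 31.6 reads under deficiency and 45.9 under sufficiency. Both peaks overlapped one end of their gene and reached into the flank. Per kb they held 19.7 and 21.6 reads on average over both conditions.

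The next of the 10 strongest were WRKY65, WRKY59, WRKY13, WRKY36, WRKY39 and WRKY22. WRKY65 had 26 reads under deficiency and 34.3 under sufficiency at its stronger peak, a log2 change of -0.40 ± 0.36 (SE, the standard error implied by the deposited p-value). WRKY13, a regulator of stem lignification, had 27.3 reads under deficiency and 26.2 under sufficiency, at a peak that also lies within 1500 bp of PLS, the gene of the POLARIS root peptide. The FDR in the authors' deposited table was 0.465 for WRKY65 and 0.959 for WRKY13. WRKY36, which represses the light regulator gene HY5, had 18.5 reads under deficiency and 29.2 under sufficiency. WRKY39, linked to heat tolerance, had 19.6 reads under deficiency and 23.4 under sufficiency. WRKY22, a late component of the flagellin-triggered MAP kinase pathway, had 20.3 reads under deficiency and 22.6 under sufficiency. Its peak was the densest of the family, with 23.4 reads per kb on average over both conditions and rank 125 of 2366.

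**Figure D3:**
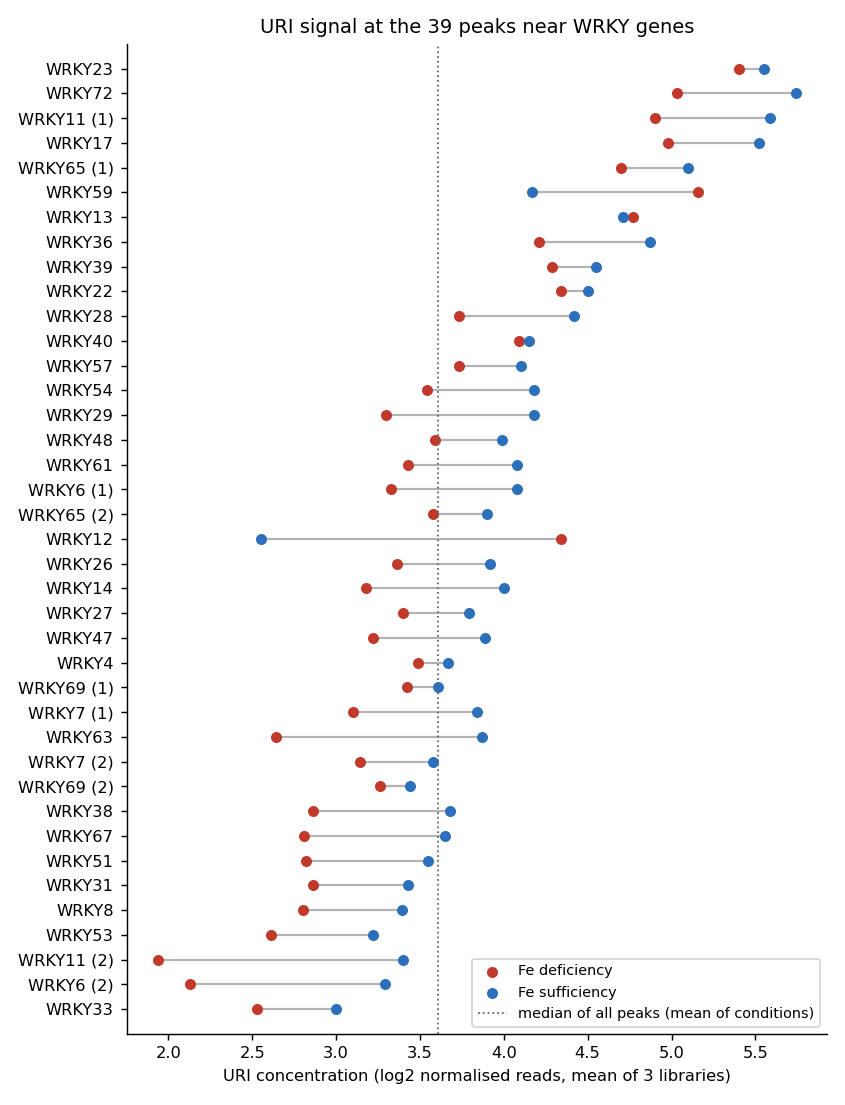
URI concentration (log2 normalised reads, mean of 3 libraries, no spread deposited) at each WRKY peak under Fe deficiency (red) and Fe sufficiency (blue), ordered by mean concentration; the dotted line is the median of all 2366 peaks, 3.61. Red lies left of blue at 36 of the 39 peaks, and WRKY59 and WRKY12 show the widest gaps in the other direction.

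Between the Fe conditions, no WRKY peak had an FDR under 0.05 in either direction in the authors' deposited table. There, 1.98% of the 1311 peaks whose FDR was adjusted were higher under deficiency and 0.0763% were lower. At an unadjusted p under 0.05, the authors' deposited table had 2 WRKY peaks higher under deficiency (3.55% of all peaks were) and 3 lower (10.1% of all peaks were). The lowest FDR of the family was 0.0829, at WRKY12. Of the 39 WRKY peaks, 25 were in the authors' adjustment (64.1%, against 55.4% of all peaks), and the other 14 were of low concentration with a deposited FDR of 1.

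Values were lower under deficiency at 36 of 39 WRKY peaks (92.3%), against 79.8% of all peaks, and above 0 at 3, against 19.9% of all peaks. The median log2 change of the family was -0.57, against -0.46 over all peaks, and the family's quartiles were -0.72 and -0.29. Over the 25 peaks in the authors' adjustment the family's median was -0.40, against -0.47 over all adjusted peaks, so the order of family and all peaks turns there. Over the 14 weaker WRKY peaks it was -0.67, against -0.45 over all peaks outside the adjustment. Changes are also given relative to the median peak, that is, with 0.46 added, which leaves the differences between family and all peaks as they were. Whether the median of -0.46 reflects scaling or lower binding at most peaks was not tested. Relative to the median peak, 23 WRKY peaks were below 0 (against 49.7% of all peaks) and 16 above, and the family's median was -0.11. A log2 change of -1 or less was found at 3 of 39 WRKY peaks (7.69%), against 7.95% of all peaks. The standard error (SE) of a change that the deposited p-value implies had a median of 0.48 over the WRKY peaks. A change was within 1 such SE at 14 of the 39 peaks (35.9%, against 43.6% of all peaks) and over 2 SE at 5 (12.8%, against 12.8% of all peaks).

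WRKY12 had the largest increase in the family. This gene, which represses secondary wall formation in the pith, had a flanking peak (chromosome 2, 18445539 to 18446661) with 20.3 reads under deficiency and 5.86 under sufficiency. The log2 change was 1.79 ± 0.58 (implied SE), or 3.46-fold, and did not pass the threshold in the authors' deposited table (p = 0.00221, FDR 0.0829). Relative to the median peak it was 2.25 and passed (FDR 0.00443, normal approximation, Benjamini-Hochberg over 1311 peaks). That result assumes a normal test statistic, while the test behind the deposited p-value is not given. Adding 0.46 also raises every increase, and the cause of that shift was not tested. The peak lies 542 bp from WRKY12, and no other protein-coding gene lies within 1500 bp of it.

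WRKY59 was the other member with a higher signal at an unadjusted p under 0.05. Its peak (chromosome 2, 9337757 to 9338915) had 35.8 reads under deficiency and 18 under sufficiency, or 30.9 reads per kb under deficiency and 15.5 under sufficiency. The log2 change was 0.99 ± 0.39 (implied SE), with p = 0.0109 and FDR 0.184 in the authors' deposited table. Set against the median peak it was 1.45 (FDR 0.00631, normal approximation, Benjamini-Hochberg over 1311 peaks), with the limits given for WRKY12. It was the farthest flank peak of the family, 1479 bp from WRKY59, with no other protein-coding gene within 1500 bp. WRKY12 and WRKY59 were the only WRKY peaks to pass relative to the median peak, where 4.88% of the 1311 peaks were higher and 0 were lower. WRKY13 was the only other member with a change above 0, at 0.06 ± 0.37 (implied SE).

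Lower values with an unadjusted p under 0.05 were found at WRKY72 and at both WRKY11 peaks. WRKY72 had a log2 change of -0.71 ± 0.34 (implied SE), and the authors' deposited table gives it p = 0.0353 and FDR 0.266. The main WRKY11 peak had a log2 change of -0.69 ± 0.31 (implied SE), and the authors' deposited table gives it p = 0.0241 and FDR 0.241. The weaker WRKY11 peak (chromosome 4, 15290437 to 15290827), inside the gene, had 3.84 reads under deficiency and 10.6 under sufficiency. Its log2 change was -1.46 ± 0.63 (implied SE), and the authors' deposited table gives it p = 0.0211 and FDR 1. Set against the median peak these 3 changes were -0.25, -0.23 and -1.0, and none passed.

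**Figure D4:**
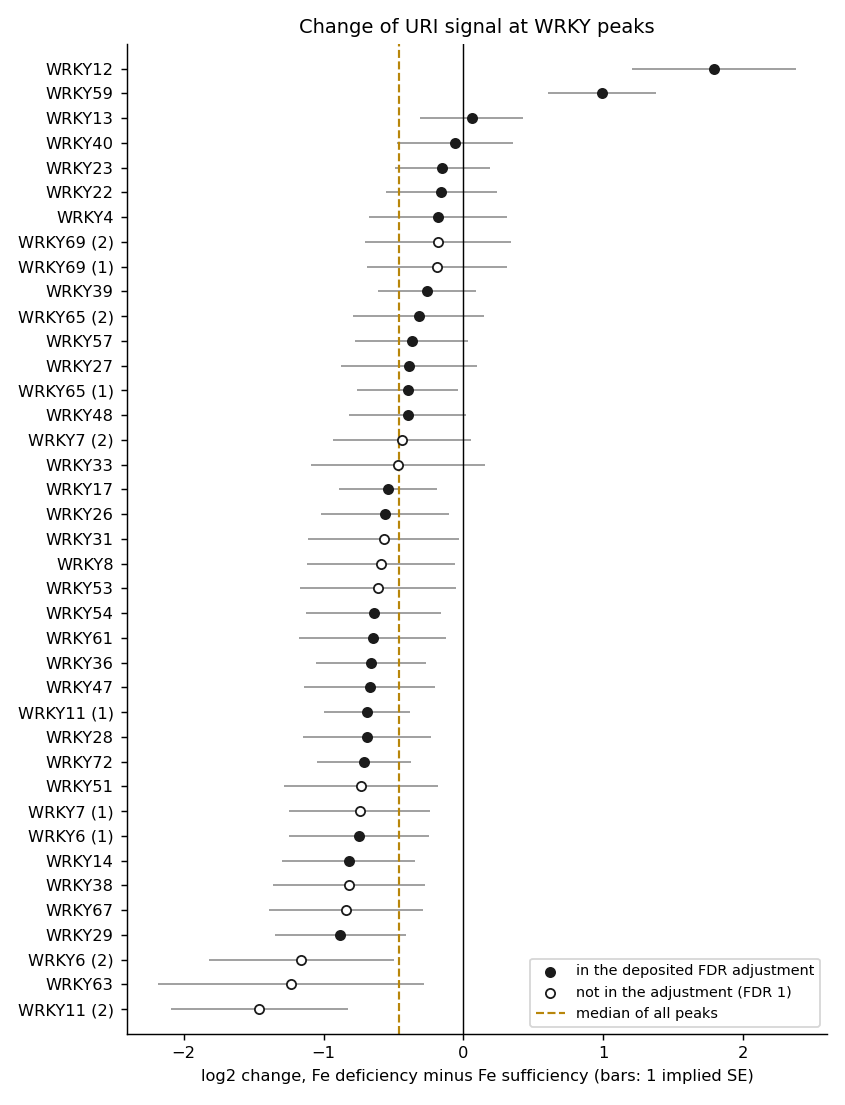
Change of URI signal (log2, Fe deficiency minus Fe sufficiency) at each WRKY peak, with bars of 1 SE implied by the deposited p-value; open points were not in the authors' FDR adjustment. The solid line marks 0 and the dashed line the median of all 2366 peaks, -0.46; WRKY12 (1.79) and WRKY59 (0.99) stand to the right of both lines, and 36 of 39 points lie left of 0.

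The 5 genes with a pair of peaks had values below 0 at both. Such values were common, at 36 of the 39 WRKY peaks and 79.8% of all peaks. WRKY6, which represses the phosphate exporter gene PHO1, had peaks on both sides, with log2 changes of -0.75 at the stronger and -1.16 at the weaker. WRKY7, a regulator of bacterial immunity, had -0.74 and -0.44 at peaks that both overlap the gene. WRKY65 had -0.40 and -0.32, and WRKY69 had -0.19 and -0.18. Relative to the median peak, both peaks of WRKY65 (0.06 and 0.14) and of WRKY69 (0.27 and 0.28) and the weaker WRKY7 peak (0.02) were above 0, so these signs turned. The pair of WRKY7 then differed in sign, since its stronger peak was at -0.28. In the authors' deposited table none of these changes had an FDR under 0.05. Peaks of 1 gene come from the same libraries and are not replicates of each other.

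In the authors' deposited table none of the following changes, given by WRKY group, had an FDR under 0.05. Group IIb changes ranged from -1.16 to -0.57 over 7 peaks with a median of -0.67. Besides WRKY6, WRKY36 and WRKY72 they include WRKY61, with 10.8 reads under deficiency and 16.9 under sufficiency. WRKY47 had 9.32 reads under deficiency and 14.8 under sufficiency, and WRKY31 had 7.26 under deficiency and 10.8 under sufficiency. All 7 group IIb changes were thus below that of the median peak, as were 49.7% of all peaks. The same holds for all 5 changes of group III. Group IIe changes ranged from -0.88 to -0.16 over 8 peaks with a median of -0.355, which is above the -0.46 of the median peak. WRKY29, which acts beside WRKY22 in flagellin signalling, had 9.85 reads under deficiency and 18.1 under sufficiency, the largest decrease of this group. WRKY14 had 9.06 reads under deficiency and 16 under sufficiency, and WRKY27, which influences bacterial wilt symptoms, had 10.6 under deficiency and 13.8 under sufficiency.

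Group IIc had the widest range, from -0.73 at WRKY51 to 1.79 at WRKY12, with a median of -0.37 over 9 peaks, again above the median peak. It held all 3 WRKY peaks with a value above 0. WRKY28, an activator of salicylate synthesis, had 13.3 reads under deficiency and 21.4 under sufficiency. WRKY57, which acts in drought tolerance and senescence, had 13.3 reads under deficiency and 17.1 under sufficiency. WRKY48, a repressor of basal defence, had 12 reads under deficiency and 15.9 under sufficiency. The weakest peaks of this group were at WRKY8, with 6.96 reads under deficiency and 10.5 under sufficiency, and at WRKY51, with 7.06 under deficiency and 11.7 under sufficiency. WRKY51 acts with WRKY50 in salicylate repression of jasmonate signalling, and WRKY50 had no peak.

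Group III changes lay between -1.23 and -0.61 over 5 peaks, with a median of -0.82. WRKY63, a regulator of abscisic acid responses, had 6.23 reads under deficiency and 14.6 under sufficiency, a log2 change of -1.23 ± 0.95 (implied SE). WRKY54, which acts with WRKY70 in salicylate signalling and senescence, had 11.6 reads under deficiency and 18.1 under sufficiency, while WRKY70 had no peak. WRKY38, a negative regulator of basal defence, had 7.26 reads under deficiency and 12.8 under sufficiency, and its partner WRKY62 had no peak. WRKY67 had 7.01 reads under deficiency and 12.5 under sufficiency, and WRKY53 had 6.11 under deficiency and 9.32 under sufficiency. Apart from WRKY54, these peaks were outside the authors' FDR adjustment, where no peak had a concentration above 3.52.

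Group I had 3 peaks, of concentrations 2.79 to 3.67, with log2 changes from -0.56 to -0.18, and the gene nearest to each midpoint was not the WRKY gene. WRKY26, which acts in heat tolerance, had 10.3 reads under deficiency and 15.1 under sufficiency, and AT5G07090 was nearest. WRKY4, which acts in resistance to necrotrophic fungi, had 11.2 reads under deficiency and 12.7 under sufficiency, and ELF5A-1 was nearest. WRKY33, the regulator of camalexin synthesis, had the weakest peak of the family, with 5.78 reads under deficiency and 8.0 under sufficiency. That peak is shared with IREG1, the ferroportin gene FPN1, and lies 1160 bp from WRKY33 with AT2G38465 nearest. WRKY40 of group IIa, a repressor in defence and abscisic acid signalling, had 17 reads under deficiency and 17.8 under sufficiency. Its relatives WRKY18 and WRKY60 had no peak.

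Over all 39 WRKY peaks, the member was the gene nearest to the midpoint for 34, and the other 5 were those of WRKY4, WRKY26, WRKY27, WRKY33 and the weaker WRKY69 peak. For 24 peaks no other protein-coding gene lay within 1500 bp.

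**Figure D5:**
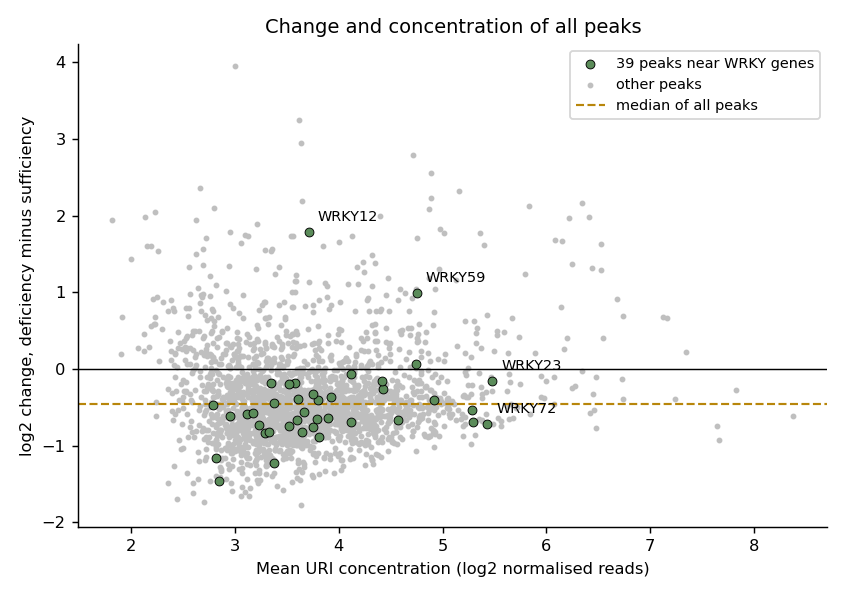
Mean URI concentration (log2 normalised reads) and log2 change (Fe deficiency minus Fe sufficiency) of all 2366 peaks, with the 39 WRKY peaks in green. WRKY peaks lie between concentrations of 2.79 and 5.48, around the dashed median change of -0.46, and WRKY12 and WRKY59 stand above it.

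WRKY6, which represses the phosphate exporter gene PHO1, had a pair of peaks, as given above. The 38 members without a peak within 1500 bp in the authors' deposited table include several other WRKY genes known for nutrient roles in roots. WRKY46, which represses the vacuolar Fe transporter gene VTL1, was among them, as were WRKY42, WRKY45 and WRKY75, which act in phosphate supply. In group I the members without a peak, of any known role, were WRKY1, WRKY2, WRKY3, WRKY10, WRKY19, WRKY20, WRKY25, WRKY32, WRKY34, WRKY44 and WRKY58. In group II they were WRKY18 and WRKY60 (IIa), WRKY9 and WRKY42 (IIb), WRKY24, WRKY43, WRKY45, WRKY49, WRKY50, WRKY56, WRKY68, WRKY71 and WRKY75 (IIc), WRKY15, WRKY21 and WRKY74 (IId) and WRKY16 and WRKY35 (IIe). In group III they were WRKY30, WRKY41, WRKY46, WRKY52, WRKY55, WRKY62, WRKY64, WRKY66 and WRKY70. The median gap was 2543 bp for unbound members, against 5778 bp for bound members. Single unbound members had wide gaps, for example 16840 bp around WRKY42, 11050 bp around WRKY62 and 7467 bp around WRKY35. A gene without a listed peak may still hold signal below the authors' calling threshold, which the sources used here do not give.

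Genes that work with WRKY factors were looked at from a list of 26, of which 6 (23.1%) had a peak, against 11.8% of all protein-coding genes. The list was chosen with earlier results of these data known, so its share is a description only. The total was 7 peaks with a median log2 change of -0.41, against -0.46 over all peaks. Of 8 MAP kinase pathway genes MKK1 had a peak (12.5%, near the 11.8% of all protein-coding genes). The MKK1 peak had 8.17 reads under deficiency and 8.75 under sufficiency. None of the 4 VQ genes, whose proteins bind WRKY factors, had one, and so few genes say little beside a share of 11.8%. Among 10 genes of salicylate and camalexin signalling, NPR3 and NPR4, which encode salicylate receptors, and PAD4, a lipase-like immune regulator, had a peak. NPR3 had 22 reads under deficiency and 38.1 under sufficiency, with a log2 change of -0.79 ± 0.36 (implied SE) and FDR 0.247 in the authors' deposited table. PAD4 had 5.90 reads under deficiency and 13.1 under sufficiency, with a log2 change of -1.15 ± 0.52 (implied SE) and FDR 1 in the authors' deposited table. NPR4 had 9.85 reads under deficiency and 13.1 under sufficiency. Among 4 nutrient genes known as WRKY targets, the phosphate transporter gene PHT1;1 had 18.8 reads under deficiency and 26.7 under sufficiency, and VTL1 had a pair of peaks within 1500 bp. The one that overlaps VTL1 had a log2 change of 0.59, and the stronger one, which does not overlap it and is nearest to IGMT4, had 0.35. PHO1 and ALMT1, a malate channel gene, had none. In the authors' deposited table no peak of this list had an FDR under 0.05, and none passed relative to the median peak.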

How the data were processed

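The submitters' processing notes list the TAIR10 genome, DiffBind and MACS2 (no version given), bedtools 2.26.0, Picard 2.4.1, SAMtools 1.3.1, Bowtie 1.2.2 and Trimmomatic 0.33. Not given in the sources used here: settings, normalisation, use of IgG, treatment of reads with several matches, and whether peaks were called per library. The authors deposited a table of peaks with log2 concentrations per condition, a log2 fold, a p-value and an FDR. The test behind that p-value is not given. The log2 scale was read from the values, since averaging both conditions as linear reads returns the mean concentration within 0.0093. Changes are the difference of the condition concentrations, which differs from the sign-reversed deposited fold by at most 0.01. A Benjamini-Hochberg adjustment over 1311 peaks returned the deposited FDR within 0.489%, and was 1 for the other 1055. No depth per library is known, and no model was fitted.

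Genes were taken from a RefSeq table of NCBI (TAIR10.1), used only for names and neighbours. An overlap of 1 bp with the gene widened by 1500 bp counted. Implied SEs are the change over the normal quantile of its p-value, or, for changes under 0.2, the median over the 101 peaks nearest in concentration. Relative changes subtract the median of all peaks and were adjusted over 1311 peaks. Scripts ran in Python 3.11.15 with scipy 1.17.1 and were tested on simulated data. Members, WRKY groups and the partner list were chosen with earlier results of these data known, and the gap classes after the values were seen. All members were named, with full statistics for those at a deposited p under 0.05. The planned search for G-box and W-box elements needed sequences and was not run.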

Additional observations from a re-analysis of the deposited data

How the results depend on the processing

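Of 54 alternative values over 7 results, 46 stayed the same (counts within 1.5 times, medians within 0.1 on the log2 scale), 8 moved and 0 reversed. Many of the 46 are counts of 0 that stayed 0. With a narrower window or a stricter FDR such a count could not rise, so the tally says little about these. The number of WRKY genes with a peak was 29 with a window of 1000 bp (10.1% of all protein-coding genes), 39 with 3000 bp (16.8%), 29 by peak midpoint (10.3%) and 30 by nearest gene (7.57%). With peaks at or above the median concentration only, it was 22 (6.27%). No setting but an FDR of 0.1, which called 1 peak as higher (WRKY12), gave a called change between conditions. Set against the median peak, 1 peak in place of 2 was higher with a window of 1000 bp and by midpoint, because the WRKY59 peak then falls outside the window. The median change was -0.40 and the median concentration 3.93 over the peaks in the authors' adjustment alone, which leaves out the weak peaks. All adjusted peaks had a median change of -0.47, so the family lies above all peaks there and below them (-0.57 against -0.46) over the whole table. Means in place of medians were -0.47 and 3.87, and the mean change of all peaks was -0.35. No paired analysis was possible because the authors' deposited table holds no value per library, and for the same reason no replicate could be left out. The planned motif alternatives (ACGTG and CANNTG) were not run. Low concentrations limit the 14 WRKY peaks outside the adjustment.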
